A study of Homo sapiens with 6 samples.

Results

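The multisubunit tethering complexes TRAPP, COG and exocyst were followed in the established human ovarian carcinoma line SKOV3 after silencing of HJURP. Cells had received an siRNA against HJURP (siHJURP) or a negative control siRNA (NC), and RNA was taken 24 h later. Their subunits were chosen by gene symbol, as every row of the expression tables named TRAPPC with a number and an optional A, B or L, COG1 to COG8, EXOC1 to EXOC8 or EXOC6B. This gave 33 of the 58735 genes in the tables, all protein-coding, with 16 in TRAPP, 8 in COG and 9 in the exocyst. The symbols use no measured value, but these families were put forward with results of the same contrast known, so the counts below describe them and support nothing further. Each group had 3 RNA-seq libraries, and siHJURP and NC shared the cell line, the siRNA treatment and the harvest time. HJURP escorts the centromeric histone CENPA to its place on the chromosome. The groups differed in the siRNA, whose sequence is not used here. The design text speaks of biological and of experimental triplicates, so p-values measure the spread between these libraries, which may be partly technical.

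Tethering complexes hold a transport vesicle close to its target membrane before SNARE proteins fuse the membranes. TRAPP acts between the endoplasmic reticulum and the Golgi, where it is also the exchange factor that loads RAB GTPases with GTP. COG tethers vesicles that recycle enzymes within the Golgi, and its loss is known to disturb glycosylation of secreted and surface proteins. The exocyst tethers secretory vesicles at the plasma membrane and serves cell polarity, migration and the growth of the cell surface.

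The NC libraries held 17116487 to 17625638 reads assigned to genes, and the siHJURP libraries 17524772 to 18027065. The deposited unit is FPKM, the fragments of a gene per kilobase of its length and per unit of library size. For the subunits this length is the number of all annotated exonic bases, whether or not they are expressed. Levels of different genes, and the sums, shares and ratios made from them, depend on this length. HJURP itself fell from 29.4 ± 0.51 to 8.65 ± 0.010 FPKM (mean ± SD throughout, with 3 libraries per group), 70.6% lower (log2 fold change -1.66, SE 0.034, limma adjusted p = 1.41e-06). By an exact two-sided permutation test p was 0.1, which no comparison of 3 with 3 libraries can go under. Of 14 markers of blood, endothelial, stromal, liver and red cells, 13 had a mean under 1 FPKM and CD3E was at 0 in all libraries. The exception, COL1A1, was not called (13.4 ± 2.0 to 11.9 ± 2.2 FPKM). Without it the list summed to 1.07 to 1.90 FPKM in NC and 1.78 to 1.99 in siHJURP. Among these untested low markers the groups did not overlap for COL3A1 (0.300 ± 0.069 to 0.909 ± 0.11 FPKM), DCN (0.0137 ± 0.0080 to 0.0315 ± 0.011, at most 10 reads) and PECAM1 (0.133 ± 0.027 to 0.0330 ± 0.018). Their part in the results was not tested. Of 10 markers of ovarian carcinoma epithelium, 8 were tested and EPCAM and WT1 were under 1 FPKM. Of these 8, 1 rose and 5 fell, beside 17.6% called higher and 20.3% called lower over all tested genes. In bulk RNA, fewer cells of a type and less RNA per cell cannot be told apart.

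Genes with a mean of at least 1 FPKM over the 6 libraries were tested with limma on log2(FPKM + 1), 13365 in all. A gene was called where the Benjamini-Hochberg adjusted p over all of these was under 0.05. Of the 33 subunits 30 were tested, and 12 rose, 3 fell and 15 were not called. Over all tested genes, 17.6% were called higher and 20.3% lower. The exocyst had 6 higher and 1 lower of 9 tested, COG had 2 higher and 2 lower of 8, and TRAPP had 4 higher and none lower of 13. No TRAPP subunit was lower at an unadjusted p under 0.05 either. The 4 higher TRAPP subunits include TRAPPC6A, whose NC mean of 0.960 FPKM is under the minimum. It was tested only through its siHJURP values, so its place in the count is not independent of the filter. NC and siHJURP did not overlap in 21 subunits, 18 with siHJURP above NC and 3 below, against 52.2% of all tested genes in either direction. These shares stand beside the counts as background only, since the families were put forward with this contrast known.

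The median log2 fold change was 0.21 over the exocyst, 0.19 over tested TRAPP and 0.07 over COG, beside -0.01 over all tested genes. With a filter at 5 FPKM, which left 7 TRAPP and 4 COG genes, the TRAPP median was 0.069 and the COG median 0.13, in the opposite order. Under TPM the medians were 0.27, 0.24 and 0.12 over the exocyst, TRAPP and COG, beside 0.04 over all tested genes. Library scaling moved the balance of calls over all genes. In the deposited FPKM, 2355 genes were higher and 2713 lower, whereas 3164 were higher and 2144 lower after rescaling to TPM, and 3102 higher and 2198 lower with each library's own read total. Under TPM the exocyst still had 6 higher and 1 lower, while TRAPP had 6 higher and none lower and COG had 4 higher and 1 lower. Fold changes are on the log2(FPKM + 1) scale, which understates the change of low genes.

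**Figure D1:**
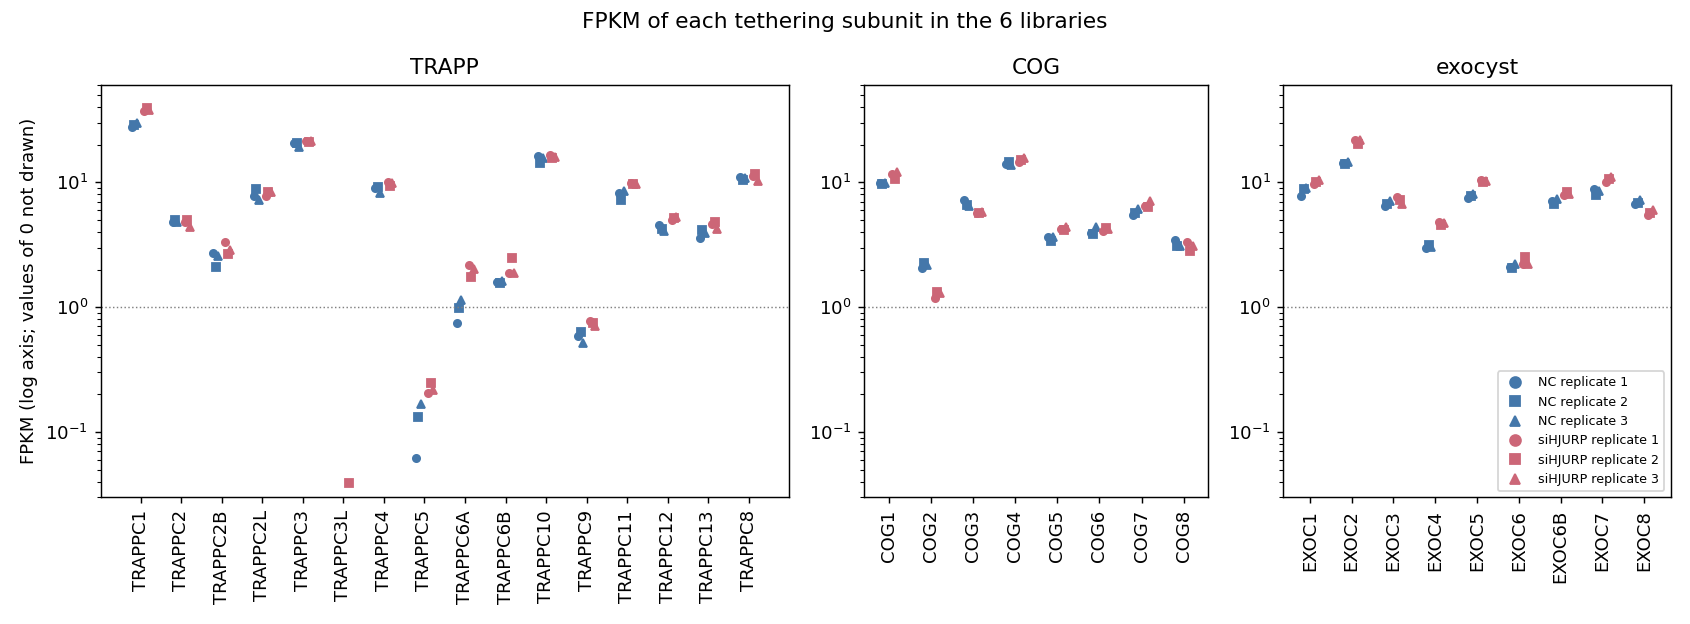
FPKM (log axis) of each subunit in the 6 libraries, with 1 panel per complex, NC in blue, siHJURP in red, and the marker shape giving the replicate; values of 0 are not drawn and the dotted line is 1 FPKM. TRAPPC1 is the highest subunit in both groups, COG2 is lower in each siHJURP library than in any NC library, and EXOC2, EXOC4 and EXOC5 are higher in each.

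On the log2(FPKM + 1) scale the exocyst changes were led by EXOC2. It is the SEC5 subunit that binds RAL GTPases (ENSG00000112685, chromosome 6, 485133 to 693111, minus strand, hg38). Its level was 14.3, 13.9 and 14.5 FPKM in NC replicates 1 to 3 and 21.7, 20.1 and 21.6 FPKM in siHJURP replicates 1 to 3. The groups lay well apart, and EXOC2 was the highest exocyst subunit in both by FPKM, though not by reads. It rose from 14.2 ± 0.30 to 21.1 ± 0.88 FPKM, 1.49-fold (log2 0.54, SE 0.043, limma adjusted p = 0.000169). EXOC4, the SEC8 subunit (ENSG00000131558, chromosome 7, 133253073 to 134066589, plus strand), had 2.99, 3.15 and 3.03 FPKM in NC and 4.83, 4.58 and 4.74 in siHJURP. With no overlap between groups, it rose 1.54-fold, from 3.06 ± 0.084 to 4.72 ± 0.13 FPKM (log2 0.50, SE 0.050, adjusted p = 0.000465). As a ratio of mean FPKM this was more than the 1.49-fold rise of EXOC2. EXOC5, the SEC10 subunit (ENSG00000070367, chromosome 14, 57200507 to 57269008, minus strand), had 7.52, 7.78 and 8.005 FPKM in NC and 10.5, 9.99 and 10.2 in siHJURP. Each siHJURP library exceeded each NC library, and the mean rose 1.32-fold, from 7.77 ± 0.24 to 10.2 ± 0.25 FPKM (log2 0.36, SE 0.042, adjusted p = 0.000837). EXOC5 shares 0.795% of its exonic bases with AP5M1 on the opposite strand, which also rose (log2 0.24, limma adjusted p = 0.0359). EXOC2 and EXOC5 kept their calls under all 22 alternatives tried, and EXOC4 under the 21 in which it was tested, since a filter at 5 FPKM left it out.

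The windows around the annotated starts of these 3 genes are shown because these had the smallest adjusted p of the exocyst, and that of COG2 because it had the lowest log2 fold change of all tested subunits. The choice was made after their values were seen. The sequences are from RefSeq (GRCh38.p14), from 250 bases before to 50 after the gene start, 5′ to 3′ on the gene's strand. The intervals are chr6:693090-693389 (minus strand), chr7:133252828-133253127 (plus), chr14:57268856-57269155 (minus) and chr1:230642231-230642530 (plus). Capitals mark matches on either strand to the ETS motif CCGGAAG, the YY1 motif AAGATGG, the Sp motif GGGCGG or the CCAAT box CCAAT, and no 2 of the marked matches overlap.
EXOC2 promoter: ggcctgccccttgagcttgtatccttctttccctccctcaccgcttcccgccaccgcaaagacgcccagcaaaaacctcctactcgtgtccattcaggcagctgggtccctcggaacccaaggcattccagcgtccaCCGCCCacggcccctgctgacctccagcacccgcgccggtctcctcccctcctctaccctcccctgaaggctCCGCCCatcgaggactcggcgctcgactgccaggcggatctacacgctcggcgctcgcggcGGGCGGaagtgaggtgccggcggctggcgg
EXOC4 promoter: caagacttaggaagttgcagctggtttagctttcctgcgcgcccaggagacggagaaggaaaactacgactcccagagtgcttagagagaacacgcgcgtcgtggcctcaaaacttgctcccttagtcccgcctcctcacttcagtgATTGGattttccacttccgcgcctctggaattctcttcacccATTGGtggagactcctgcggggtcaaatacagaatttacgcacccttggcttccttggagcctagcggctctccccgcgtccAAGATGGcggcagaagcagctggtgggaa
EXOC5 promoter: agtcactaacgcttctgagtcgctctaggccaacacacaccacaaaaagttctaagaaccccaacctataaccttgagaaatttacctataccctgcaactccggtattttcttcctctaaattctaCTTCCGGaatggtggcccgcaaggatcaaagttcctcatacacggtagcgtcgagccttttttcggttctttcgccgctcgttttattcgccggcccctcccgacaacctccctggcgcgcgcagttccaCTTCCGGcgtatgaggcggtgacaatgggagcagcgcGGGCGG
COG2 promoter: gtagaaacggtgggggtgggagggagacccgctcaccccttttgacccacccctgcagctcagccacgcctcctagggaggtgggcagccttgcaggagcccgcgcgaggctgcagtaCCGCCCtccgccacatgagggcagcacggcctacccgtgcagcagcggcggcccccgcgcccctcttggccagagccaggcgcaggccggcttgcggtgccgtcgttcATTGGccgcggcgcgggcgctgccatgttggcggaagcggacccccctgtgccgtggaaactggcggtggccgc
The RefSeq start lies 28, 5, 103 and 8 bases from the gene start in the expression tables for EXOC2, EXOC4, EXOC5 and COG2. Their windows hold 68.3%, 55.7%, 53.3% and 72.7% G and C.

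No motif was in all 4 windows. Among them the ETS letters were found only in EXOC5, at 2 places, and the YY1 letters only in EXOC4. Windows were available for 29 of the 33 subunits, and TRAPPC8, TRAPPC9, EXOC6B and COG7 had no entry. The ETS letters were in 14 of the 29 (48.3%), beside 21.1% of the windows of 8759 tested protein-coding genes and 10.3% of all 35116 windows. They were in 7 of 14 TRAPP, 4 of 7 COG and 3 of 8 exocyst windows. The YY1 letters were in 6 of the 29 (20.7%), beside 7.92% of the tested coding genes. The Sp letters were in 21 (72.4%, beside 72.3%) and the CCAAT box in 11 (37.9%, beside 36.9%). The NRF1 motif GCATGCGC, the CRE TGACGTCA and the E-box CACGTG, also read on both strands, were in 2 windows each (6.90%), beside 5.86%, 3.38% and 10.1%. A match is a description of these letters and not a bound site.

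EXOC1 is the SEC3 subunit, which in yeast binds phosphoinositides, and with EXOC2, EXOC3 and EXOC4 it makes subcomplex 1 of the exocyst. EXOC1 had 7.73, 8.88 and 8.96 FPKM in NC and 9.59, 10.04 and 10.4 in siHJURP, with a gap between the groups smaller than the spread within NC. It rose by 0.21 on the log2 scale (SE 0.063, limma adjusted p = 0.0359). EXOC3, the SEC6 subunit, had 6.43, 6.64 and 7.01 FPKM in NC and 7.54, 7.23 and 6.73 in siHJURP. The groups overlapped and it was not called (log2 0.09, SE 0.055, adjusted p = 0.262). Of the 4 subunits of this subcomplex, 3 rose and none was called lower, beside 17.6% called higher and 20.3% called lower over all tested genes.

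In subcomplex 2, EXOC7 is the EXO70 subunit, which anchors the complex to phosphoinositides of the plasma membrane. It had 8.87, 7.92 and 8.49 FPKM in NC and 9.96, 10.5 and 10.9 in siHJURP, every siHJURP value above every NC value. EXOC7 rose by 0.28 on the log2 scale (SE 0.055, limma adjusted p = 0.00661). Its exons share 26.3% of their bases with ZACN on the opposite strand, a gene at a mean of 0.107 FPKM. EXOC8, the EXO84 subunit and a further RAL effector (ENSG00000116903, chromosome 1, 231332753 to 231337852, minus strand), was the 1 exocyst gene that fell. Its level was 6.67, 6.76 and 7.18 FPKM in NC and 5.44, 5.70 and 6.03 in siHJURP. The groups did not overlap, and the mean went from 6.87 ± 0.27 to 5.72 ± 0.30 FPKM, 16.6% lower (log2 -0.23, SE 0.052, adjusted p = 0.0140). EXOC8 shares 14.7% of its exonic bases with SPRTN on the opposite strand, which was not called (log2 -0.10, adjusted p = 0.219).

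EXOC6 and EXOC6B are paralogs that encode alternative SEC15 subunits, the binding partners of RAB11. EXOC6B was the higher of the pair, at 7.02, 6.67 and 7.37 FPKM in NC and 7.90, 8.40 and 7.97 in siHJURP, without overlap. It rose by 0.18 on the log2 scale (SE 0.050, limma adjusted p = 0.0266). EXOC6 had 2.08, 2.04 and 2.21 FPKM in NC and 2.20, 2.51 and 2.22 in siHJURP, overlapping values that were not called (log2 0.09, SE 0.072, adjusted p = 0.388). EXOC6 supplied 23.1 ± 0.28% of the summed FPKM of the pair in NC and 22.2 ± 0.71% in siHJURP, and these shares overlapped.

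Some of the smaller exocyst calls were lost when a library was left out. Without siHJURP replicate 1, 4 exocyst subunits were called in place of 7, and 3719 genes in place of 5068 over all tested genes. In that fit EXOC1, EXOC6B and EXOC8, which lost their calls, had log2 fold changes of 0.24, 0.20 and -0.20. EXOC1 lost its call without NC replicate 1 (adjusted p = 0.0738) or without siHJURP replicates 1, 2 or 3 (0.0569, 0.0812 and 0.108). EXOC6B lost its call without NC replicates 1 or 2 (0.0658 and 0.0611) or siHJURP replicates 1, 2 or 3 (0.0584, 0.0776 and 0.0597), and EXOC8 without siHJURP replicate 1 (0.0532).

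**Figure D2:**
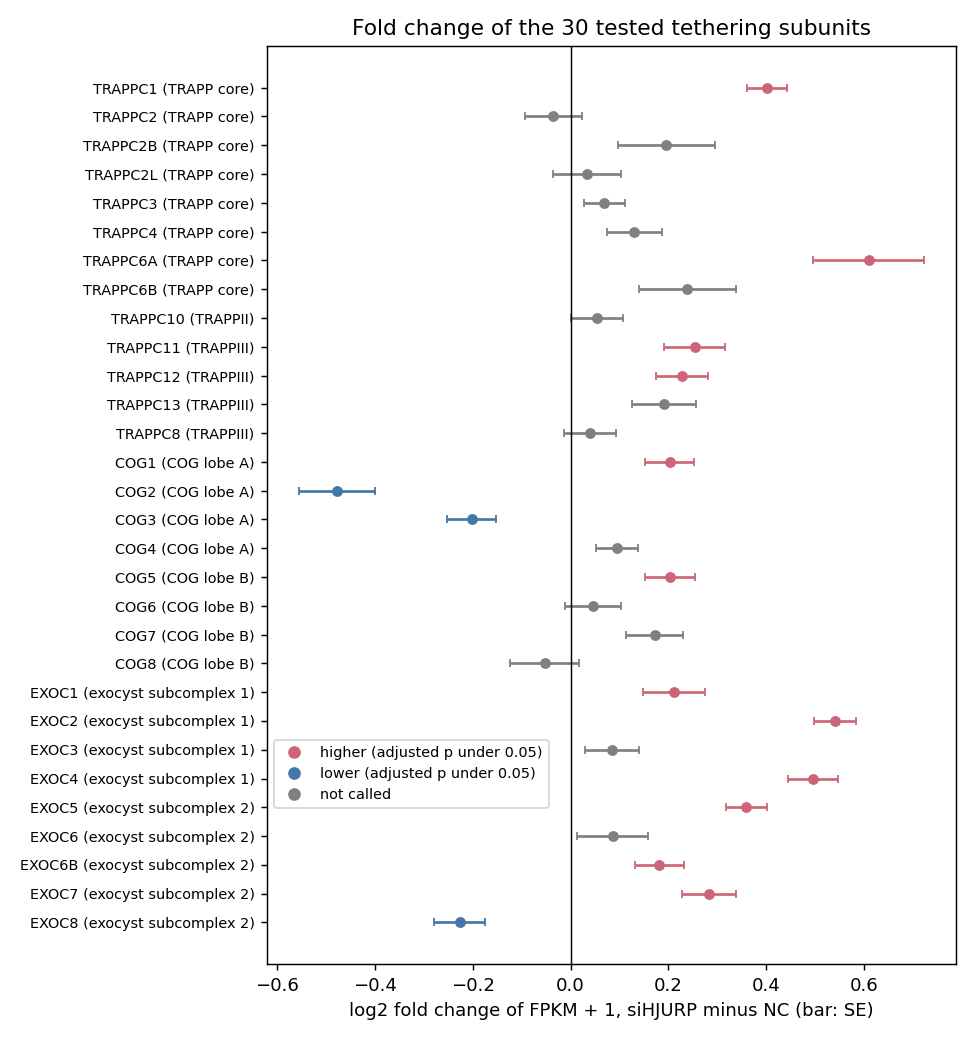
Log2 fold change of FPKM + 1, siHJURP minus NC, of the 30 tested subunits, with bars of 1 SE and colour giving the call (adjusted p under 0.05). EXOC2, EXOC4, TRAPPC1 and TRAPPC6A lie farthest to the right and COG2 farthest to the left, and COG1 and COG3, both of lobe A, lie on opposite sides of 0.

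COG had calls in both directions, 25% higher and 25% lower of 8 tested, near the 17.6% and 20.3% over all tested genes. COG2, a subunit of lobe A, the arm of the complex made of COG1 to COG4, fell most (ENSG00000135775, chromosome 1, 230642489 to 230693982, plus strand, hg38). Its values were 2.06, 2.26 and 2.16 FPKM in NC and 1.19, 1.33 and 1.29 in siHJURP, from 236 to 430 reads per library. All siHJURP libraries lay below all NC libraries, and COG2 was the lowest COG subunit in both groups. The mean went from 2.16 ± 0.10 to 1.27 ± 0.072 FPKM, 41.2% lower (log2 -0.48, SE 0.078, limma adjusted p = 0.00338). COG3, also of lobe A, had 7.18, 6.58 and 6.46 FPKM in NC and 5.69, 5.66 and 5.82 in siHJURP. It fell by 0.20 on the log2 scale (SE 0.050, adjusted p = 0.0188), with no overlap between groups and less spread in siHJURP.

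COG1, which joins the lobes together with COG8, had 9.87, 9.63 and 9.90 FPKM in NC and 11.6, 10.7 and 12.1 in siHJURP. It rose without overlap (log2 0.20, SE 0.050, limma adjusted p = 0.0188). COG1 shares 21.7% of its exonic bases with FAM104A on the opposite strand, which was not called (log2 -0.05, adjusted p = 0.557). COG4, the remaining lobe A subunit and a partner of the Golgi SNARE STX5, was the highest COG gene at 13.9, 14.5 and 13.8 FPKM in NC and 14.6, 15.0 and 15.7 in siHJURP. These groups lay close without overlap, and COG4 was not called (log2 0.10, SE 0.043, adjusted p = 0.123).

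Of lobe B, COG5 rose, with 3.63, 3.38 and 3.61 FPKM in NC and 4.19, 4.14 and 4.34 in siHJURP (log2 0.20, SE 0.052, limma adjusted p = 0.0204). The groups did not overlap, and 18.1% of its exonic bases lie in exons of other genes, among them HBP1 and DUS4L, neither of which was called. COG7, known from a congenital disorder of glycosylation, had 5.49, 5.68 and 6.05 FPKM in NC and 6.42, 6.30 and 7.06 in siHJURP. All 3 siHJURP values were above NC but the gene missed the threshold (log2 0.17, SE 0.058, adjusted p = 0.0535). COG6 had 3.95, 3.85 and 4.34 FPKM in NC and 4.07, 4.29 and 4.26 in siHJURP (log2 0.05, SE 0.057, adjusted p = 0.566). COG8 had 3.42, 3.11 and 3.10 FPKM in NC and 3.31, 2.79 and 3.08 in siHJURP (log2 -0.05, SE 0.071, adjusted p = 0.591). Both overlapped between groups. COG8 is uncertain, since 48.0% of its exonic bases lie in exons of other genes, among them VPS4A, NIP7 and PDF.

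Several COG calls were also lost when a library was left out. Without siHJURP replicate 1, 1 COG gene was called in place of 4, and without siHJURP replicate 3, 2 were. Over all tested genes these fits called 3719 and 3974 genes in place of 5068. Without siHJURP replicate 1 the log2 fold changes of COG1, COG3 and COG5 were 0.19, -0.20 and 0.21. COG1 lost its call without siHJURP replicate 1 or 3 (adjusted p = 0.0658 and 0.0582), as did COG5 (0.0604 and 0.0690). COG3 lost its call without NC replicate 1 (0.0513), siHJURP replicate 1 (0.0622) or siHJURP replicate 2 (0.0516), and under TPM (0.0737), whereas COG2 kept its call with any 1 library left out. Under TPM, COG4 and COG7 were called higher (adjusted p = 0.0321 and 0.0271).

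TRAPP has a core shared by all its forms and peripheral subunits that make TRAPPII, an exchange factor for RAB11, or TRAPPIII, which acts on RAB1 and in autophagy. TRAPPC1, a core subunit (ENSG00000170043, chromosome 17, 7930345 to 7932123, minus strand, hg38), was the highest of the 33 subunits in FPKM. By reads it was not, at 559 to 854 per library beside 2973 to 3585 for TRAPPC10. TRAPPC1 had 27.9, 28.5 and 29.7 FPKM in NC and 37.4, 39.6 and 37.7 in siHJURP, far from overlapping. It rose 1.33-fold, from 28.7 ± 0.95 to 38.2 ± 1.2 FPKM (log2 0.40, SE 0.041, limma adjusted p = 0.000465), and kept the call under all 22 alternatives. TRAPPC1 shares 1.96% of its exonic bases with CNTROB on the opposite strand, which also rose (log2 0.42, adjusted p = 0.000479). Whether reads of CNTROB add to TRAPPC1 was not tested.

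TRAPPC6A and TRAPPC6B are paralogous core subunits that substitute for each other. TRAPPC6A (ENSG00000007255, chromosome 19, 45162928 to 45178237, minus strand) had 0.751, 0.985 and 1.14 FPKM in NC and 2.19, 1.74 and 2.02 in siHJURP, from 12 to 37 reads per library. The groups did not overlap, and it rose 2.07-fold, from 0.960 ± 0.20 to 1.98 ± 0.22 FPKM (log2 0.61, SE 0.11, limma adjusted p = 0.00572). Its NC mean is under the minimum of 1 FPKM, so the gene was tested through its siHJURP values. TRAPPC6B had 1.598, 1.57 and 1.61 FPKM in NC and 1.87, 2.48 and 1.86 in siHJURP, with siHJURP replicate 2 apart from the others. It was not called (log2 0.24, SE 0.099, adjusted p = 0.1003), and 56.2% of its exonic bases lie in an opposite-strand gene whose mean was 0.00294 FPKM. TRAPPC6A made up 37.4 ± 4.9% of the summed FPKM of the pair in NC and 49.1 ± 6.8% in siHJURP, and the shares overlapped, at 41.6% in NC replicate 3 and 41.3% in siHJURP replicate 2.

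The other tested core subunits were not called. TRAPPC3, a core subunit that carries a palmitate, had 20.7, 20.6 and 19.2 FPKM in NC and 21.3, 20.9 and 21.4 in siHJURP (log2 0.07, SE 0.042, limma adjusted p = 0.233). TRAPPC4 had 9.06, 9.14 and 8.16 FPKM in NC and 9.98, 9.24 and 9.90 in siHJURP (log2 0.13, SE 0.056, adjusted p = 0.108). Neither overlapped, by narrow gaps, and TRAPPC4 shares 10.6% of its exonic bases with SLC37A4 on the opposite strand, which rose (log2 0.38, adjusted p = 0.00184). A further 5.06% is shared with RPS25, also on the opposite strand, at a mean of 181 FPKM and not called (log2 -0.09, adjusted p = 0.284). TRAPPC2, the sedlin gene of an X-linked skeletal dysplasia, had 4.79, 5.01 and 4.798 FPKM in NC and 4.83, 5.01 and 4.36 in siHJURP, which overlap. It was the 1 tested TRAPP gene with a negative log2 fold change (-0.04, SE 0.058, adjusted p = 0.670), a sign that turned under TPM (0.014), total-read scaling (0.00994) and without siHJURP replicate 3 (0.013).

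TRAPPC2B, a retrotransposed copy of TRAPPC2, had 2.73, 2.09 and 2.57 FPKM in NC and 3.35, 2.68 and 2.86 in siHJURP (log2 0.20, SE 0.099, limma adjusted p = 0.163). It shares 12.1% of its 75-base windows with other transcripts. The largest part is with ZNF547 (6.52%, a gene with at most 77 reads in a library), and TRAPPC2 is also among them. Reads of TRAPPC2B may therefore be split with these genes. TRAPPC2L had 7.80, 8.81 and 7.24 FPKM in NC and 7.76, 8.29 and 8.38 in siHJURP (log2 0.03, SE 0.070, adjusted p = 0.739). Both sets of values overlapped between groups. The sign of TRAPPC2L turned without NC replicate 3 (-0.024).

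All 4 TRAPPIII subunits were tested. TRAPPC11 had 8.23, 7.20 and 8.55 FPKM in NC and 9.80, 9.68 and 9.61 in siHJURP, with little spread in siHJURP and no overlap (log2 0.25, SE 0.062, limma adjusted p = 0.0174). TRAPPC12, which also has a reported role at kinetochores in mitosis, had 4.52, 4.21 and 4.05 FPKM in NC and 5.02, 5.21 and 5.23 in siHJURP (log2 0.23, SE 0.053, adjusted p = 0.0142). Both rose, while TRAPPC13 and TRAPPC8 were not called. TRAPPC13 had 3.57, 4.12 and 3.90 FPKM in NC and 4.66, 4.76 and 4.25 in siHJURP, without overlap (log2 0.19, SE 0.065, adjusted p = 0.0561). It shares 4.34% of its exonic bases with SGTB on the opposite strand, which fell (log2 -0.22, adjusted p = 0.0193). TRAPPC8 had 11.0, 10.4 and 10.7 FPKM in NC and 11.2, 11.7 and 10.3 in siHJURP, with overlap (log2 0.04, SE 0.053, adjusted p = 0.598). TRAPPC11 lost its call without siHJURP replicate 1 (adjusted p = 0.0593), and TRAPPC13 passed without NC replicate 2 (0.0461).

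Of the TRAPPII subunits, TRAPPC10 had 16.2, 14.3 and 15.7 FPKM in NC and 16.5, 15.5 and 15.98 in siHJURP, overlapping values that were not called (log2 0.05, SE 0.054, limma adjusted p = 0.465). Its transcripts share 41.8% of their 75-base windows with the copy FP565260.6, which had at most 79 reads in a library. TRAPPC9 was under the 1 FPKM minimum and not tested, at 0.592, 0.636 and 0.515 FPKM in NC and 0.775, 0.746 and 0.701 in siHJURP. Neither TRAPPII subunit therefore had a called difference. With the minimum at 0.1 FPKM, TRAPPC9 had a log2 fold change of 0.14 (adjusted p = 0.285).

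Another pair of core genes was too low to test. TRAPPC5 had 0.0618, 0.132 and 0.167 FPKM in NC and 0.204, 0.249 and 0.216 in siHJURP, from 6 to 26 reads (log2 0.13, limma adjusted p = 0.319 with the minimum at 0.1 FPKM). TRAPPC3L, a paralog of TRAPPC3, had 2 reads in siHJURP replicate 2 and none in the other libraries, where a count of 0 allows up to 0.0645 FPKM. This floor of 3 reads covers counting error only. Without siHJURP replicate 1 the median over tested TRAPP genes was 0.13 in place of 0.19.

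Summed over its subunits, each complex was higher in every siHJURP library than in any NC library, by unequal amounts. The exocyst sum was 63.6, 63.7 and 66.7 FPKM in NC and 79.6, 79.1 and 80.9 in siHJURP, 1.23 times the NC mean. The TRAPP sum was 119.5, 117.7 and 118.1 FPKM in NC and 136.9, 137.7 and 134.7 in siHJURP, 1.15 times. The COG sum was 49.5, 49.0 and 49.5 FPKM in NC and 51.0, 50.1 and 53.6 in siHJURP, 1.05 times. The exocyst sum divided by the COG sum thus went from 1.31 ± 0.033 to 1.55 ± 0.036. No test was made of these sums, since subunits are not replicates.

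The shares of strongly changed subunits in their complex sums restate the single-gene changes above and are no separate result. EXOC2 was 22.0 ± 0.41% of the exocyst sum in NC and 26.4 ± 0.92% in siHJURP, and TRAPPC1 went from 24.2 ± 0.92% to 28.0 ± 0.70% of the TRAPP sum. COG2 went from 4.38 ± 0.23% to 2.46 ± 0.17% of the COG sum. None of these shares overlapped between groups, which follows from giving subunits already seen to change. The highest COG subunit, COG4, had 6.51 times the mean FPKM of the lowest, COG2, in NC and 11.9 times in siHJURP, and EXOC2 had 6.72 and 9.15 times that of EXOC6, the lowest exocyst subunit.

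**Figure D3:**
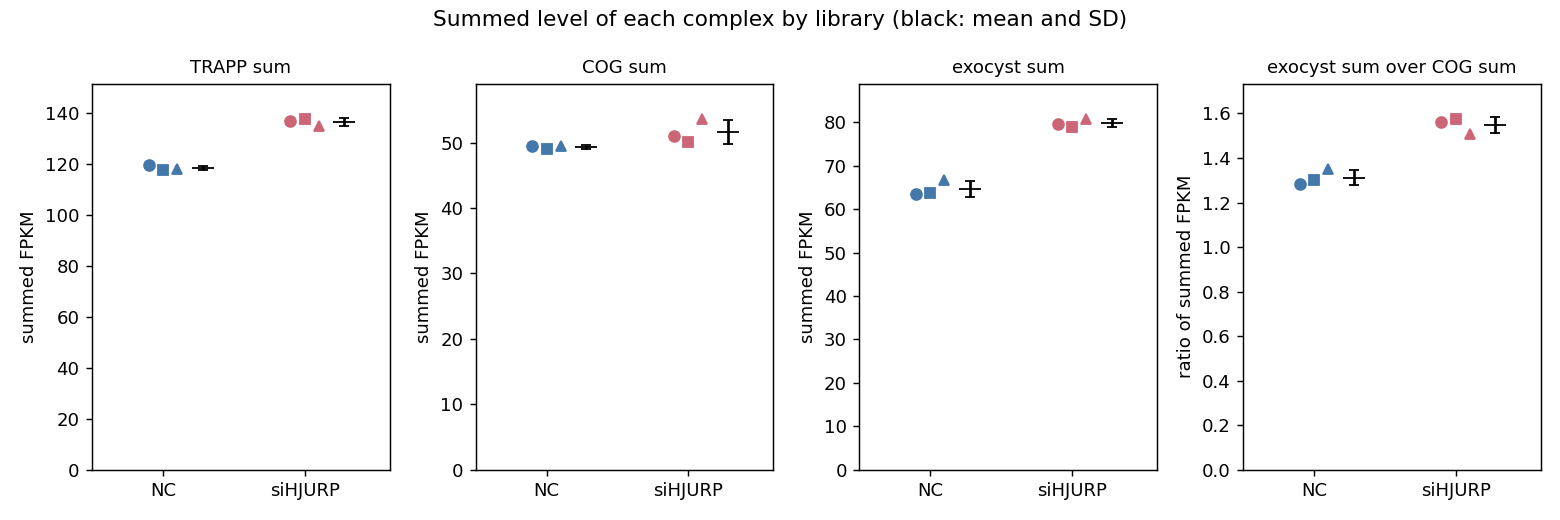
Summed FPKM of TRAPP, COG and the exocyst, and the exocyst sum divided by the COG sum, in each library (points; shape gives the replicate) with the mean and SD of each group in black, on axes from 0. The siHJURP points lie above the NC points in all 4 panels, farthest for the exocyst (1.23 times) and least for COG (1.05 times).

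The siHJURP libraries differed in IFI6, the 1 interferon-induced gene shown here. IFI6 had 13.9, 15.4 and 16.9 FPKM in NC and 160.3, 12.7 and 233.9 in siHJURP, high in replicates 1 and 3 and below NC in replicate 2. In siHJURP replicates 1, 2 and 3, 22, 21 and 20 of the 30 tested subunits exceeded all NC libraries, and 3, 4 and 6 were under all of them. Such counts by library were not made over all tested genes, so they cannot be read as a trait of the subunits. The median difference of the tested subunits from the NC mean was 0.15, 0.11 and 0.16 on the log2 scale. With siHJURP replicates 1 and 3 both left out, the median log2 fold change was 0.23 over the exocyst, 0.11 over tested TRAPP and 0.077 over COG. Over all tested genes it was -0.0021. That fit has 1 siHJURP library, which is assumed to vary like the NC libraries. The part of the interferon genes in the results was not tested.

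The rest of the secretory pathway was mixed in direction. The counts in each list stand beside 17.6% called higher and 20.3% called lower over all tested genes, and they describe the lists only. Of 8 subunits of other multisubunit tethers, 3 rose and 1 fell. ZW10, which serves retrograde transport to the endoplasmic reticulum and the kinetochore checkpoint, had 7.81, 7.01 and 7.14 FPKM in NC and 18.2, 18.5 and 17.2 in siHJURP. It rose 2.46-fold (log2 1.19, SE 0.052, limma adjusted p = 2.28e-05), more than any tested TRAPP, COG or exocyst gene on this scale. Its partners RINT1 and NBAS were not called (log2 -0.08 and 0.03, adjusted p = 0.430 and 0.768). VPS52 and VPS53, of the tethers of endosome-derived vesicles, rose (log2 0.27 and 0.43, adjusted p = 0.00232 and 0.00398), and VPS54 fell (log2 -0.23, adjusted p = 0.00850). VPS50 and VPS51 were not called (log2 0.17 and -0.09, adjusted p = 0.115 and 0.213).

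Golgins, the coiled-coil tethers of the Golgi, had 7 higher and 3 lower of 14. USO1, which binds RAB1, rose from 17.7 ± 0.26 to 22.1 ± 0.33 FPKM (log2 0.31, limma adjusted p = 0.000677), and its partner GOLGA2 from 5.96 ± 0.47 to 12.4 ± 0.84 (log2 0.95, adjusted p = 0.000111). The COPII coat, whose vesicles TRAPP receives, had 4 higher and 4 lower of 16. SEC13 and SEC23B rose (log2 0.35 and 0.26, adjusted p = 0.00151 and 0.00304) and SEC23A was not called (log2 -0.04, adjusted p = 0.463). The COPI coat, whose vesicles COG receives, had 4 higher and 3 lower of 13 tested among 14, with COPA and COPB1 not called (log2 0.02 and 0.08, adjusted p = 0.772 and 0.163).

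SNAREs of the endoplasmic reticulum and Golgi had 3 higher and 3 lower of 16 (18.75% each), near the shares over all tested genes. STX5 and GOSR1, at 58.6 ± 2.3 and 9.23 ± 0.17 FPKM in NC, were not called (log2 -0.03 and -0.04, limma adjusted p = 0.604 and 0.543). SNAREs of the plasma membrane had 4 higher and 3 lower of 12, with STX4 and SNAP23 not called (log2 0.12 and -0.13, adjusted p = 0.219 and 0.220). Among the 14 tested of 15 GTPases and partners of TRAPP and the exocyst, 1 rose and 5 fell. RALA, whose product binds EXOC2 and EXOC8, fell from 23.2 ± 0.33 to 18.1 ± 1.1 FPKM (log2 -0.34, adjusted p = 0.00177), and RAB8A, which acts in exocytosis, fell by 0.24 on the log2 scale (adjusted p = 0.00971). RAB1B rose by 0.12 (adjusted p = 0.0281), while RAB1A, RAB11A and RALB were not called (log2 -0.03, 0.08 and -0.10, adjusted p = 0.542, 0.237 and 0.220). Golgi glycosylation enzymes and residents had 2 higher and 4 lower of 18 tested among 20, where B4GALT1 rose by 0.82 (adjusted p = 2.64e-05) and MGAT1 fell by 0.21 on the log2 scale (adjusted p = 0.0147).

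**Figure D4:**
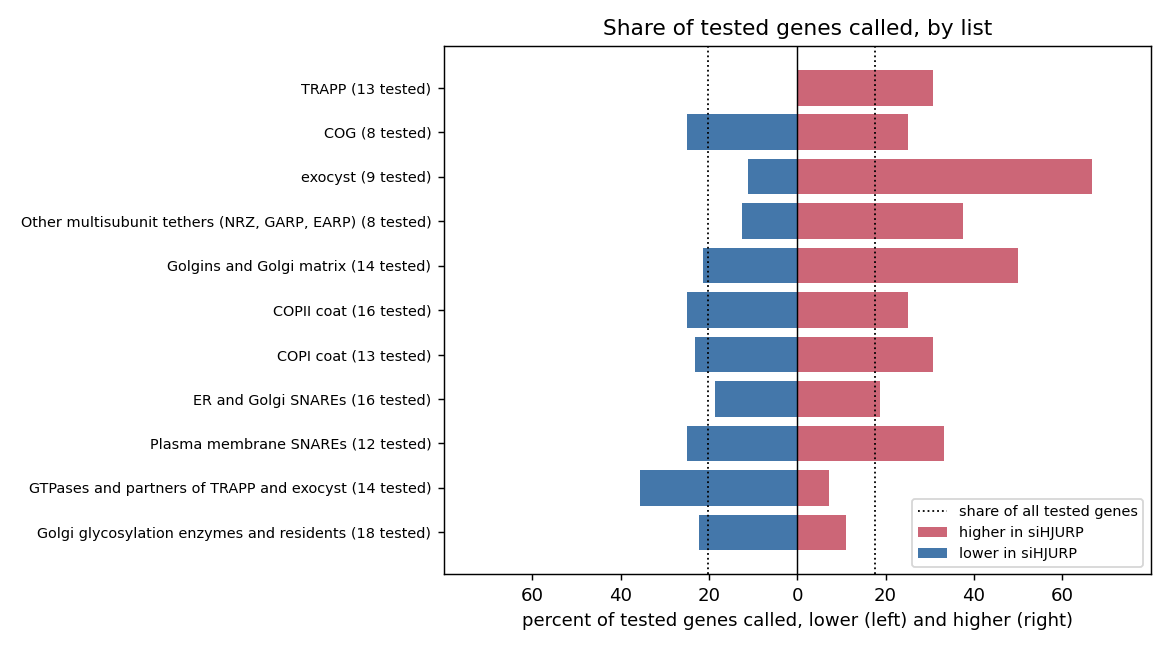
Percent of tested genes called higher (red, right) and lower (blue, left) in siHJURP for the 3 complexes and the 8 secretory pathway lists, with the share of all tested genes as dotted lines (17.6% higher, 20.3% lower). The exocyst has the longest bar to the right (6 of 9), TRAPP has no bar to the left, and GTPases and partners have the longest bar to the left (5 of 14).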

How the data were processed

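RNA-seq was measured in 6 SKOV3 libraries, 3 per group as the titles label them. The authors deposited 1 table of FPKM per library, with 58735 genes. The tools were featureCounts 1.5.0-p3 and HISAT2 2.0.5 on the build hg38, per the submitters' processing notes. The sources used here give neither the strand setting nor the FPKM formula, so opposite-strand genes with overlapping exons may share reads. FPKM multiplied by length gave whole reads within 0.01 in 100% of values. The library size behind the FPKM was 0.985 to 0.989 times the total of these reads for NC and 1.02 to 1.03 times for siHJURP, which shows that the deposited values had been scaled between libraries. At this depth low or short genes have few reads, such as 12 to 37 for TRAPPC6A.

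The limma package (3.58.1, R 4.3.3) was fitted to log2(FPKM + 1), with an intensity trend, over genes with a mean of at least 1 FPKM, two-sided, with Benjamini-Hochberg adjustment over all 13365 tested genes at 0.05. The fit was tested on simulated data. Tables, overlaps and promoters used Python 3.11.15 (numpy 2.4.6, scipy 1.17.1, pandas 2.3.3), figures used matplotlib 3.10.9, and exons came from GENCODE 29, in whose annotation all genes of the tables have the same coordinates. Shared sequence was counted as 75-base windows of a gene's transcripts also present in another gene's.

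Every subunit, HJURP and fixed genes of 8 secretory pathway lists were named whatever their values. Some of the genes that overlap a subunit's exons or share its sequence, IFI6 and the markers were added beside the results they touch. Members and lists were chosen with earlier results of these data known. The 22 alternatives were 2 pseudocounts, 3 filters, TPM, median-ratio, quantile and total-read scaling, limma with array weights, robust moderation, no trend, or voom on the recovered reads, protein-coding genes alone, a replicate block, each library left out, and siHJURP replicates 1 and 3 left out.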

Additional observations from a re-analysis of the deposited data

How the results depend on the processing

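EXOC2, EXOC5 and TRAPPC1 kept their calls under all 22 alternatives, and EXOC4 under the 21 that tested it. Over the 30 tested subunits, 648 values were recomputed; 585 kept direction and side of the threshold, 37 lost the call, 21 gained it and 5 changed sign. The causes were not tested except where fewer genes or libraries entered. The TRAPP median log2 fold change, 0.19, was 0.23 and 0.21 with pseudocounts of 0.1 and 0.5, 0.14 and 0.069 with filters at 0.1 and 5 FPKM, 0.13 with no filter, 0.24 with TPM, total-read scaling and voom, 0.11 without siHJURP replicates 1 and 3, and 0.13 to 0.21 with 1 library left out. The COG median, 0.07, was 0.13 with the filter at 5 FPKM and 0.12 with TPM or total-read scaling. The exocyst median, 0.21, was 0.27 with TPM, 0.26 with total-read scaling and 0.18 to 0.25 with 1 library left out. With 1 library left out, 1 to 4 COG and 4 to 7 exocyst subunits were called. Over all tested genes 3719 to 4724 were called in these fits, in place of 5068. The filter at 5 FPKM left 2 TRAPP calls among 7 tested. Without siHJURP replicates 1 and 3, limma called 1844 genes in place of 5068, with 1 TRAPP, 0 COG (1 at an unadjusted p under 0.05) and 3 exocyst subunits. The log2 fold change of TRAPPC2, -0.04, was 0.014 with TPM, 0.00994 with total-read scaling, 0.035 without both replicates and -0.070 to 0.013 with 1 library left out, and that of TRAPPC2L was -0.024 to 0.10. No shared deviation was seen between same-numbered libraries, with correlations of 0.0025, -0.012 and 0.016. These values cannot tell how the replicates were made. With the replicate number as a block, 4527 genes were called, with 4 TRAPP, 5 COG and 6 exocyst subunits. Low read counts limit TRAPPC3L, TRAPPC5 and TRAPPC6A, which had at most 37 reads in a library, and the reason for these counts was not tested.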
